A study of Homo sapiens with 6 samples.

Results

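DNA repair genes were followed in T24 cells, an established line of bladder carcinoma, after exposure to MAP30. Of 57 repair genes chosen by name, 52 had at least 1 probe set annotated to that gene alone and were measured among 18132 genes of the array. The others, BRCA2, RBBP8, FANCA, FANCD2 and ERCC5, were not analysed here. The control group held 3 arrays of T24 cells, labelled normal, and the treated group held 3 arrays of T24 cells given MAP30 at 10 µg/ml and harvested after 48 hours. MAP30, from bitter melon, inactivates ribosomes. The labels state neither what the control cells received nor when they were harvested. Whether replicates came from separate cultures is not stated either, and p-values therefore rest on the spread between these arrays, which may be technical.

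Cells keep separate pathways for separate lesions. Homologous recombination copies an intact sister chromatid to mend a double-strand break, and the Fanconi pathway opens up cross-links between the strands; both work mainly in dividing cells, in S and G2 phase. Mismatch repair corrects errors of replication, nucleotide excision removes bulky lesions such as those of ultraviolet light, and base excision removes single damaged bases. End joining ligates broken ends without a template and works through most of the cell cycle.

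The genes were sorted by these roles into 8 groups: homologous recombination, Fanconi, damage-signalling kinases, mismatch repair, nucleotide excision, base excision with single-strand break repair, end joining, and the MRN complex that binds broken ends. Each value below is a log2 value relative to the median of the same probe set over the 6 arrays, averaged over the probe sets of a gene. Such values compare arrays, not genes, so the level of a gene, and the identity of the line by its markers, could not be read from them. A log2 fold change is the mean of the 3 MAP30 arrays minus the mean of the 3 control arrays, given with the standard error (SE) of limma's moderated test, and a gene passed at an adjusted p under 0.05 over all 18132 genes.

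Promoter letters were examined because many repair genes are switched on with the cell cycle by E2F factors. RefSeq windows of GRCh38.p14, from 250 bases before to 50 bases after an annotated start, were found for 52 of the 57 genes; RAD54B, FANCI, XRCC5, PRKDC and NBN had none. The windows were searched on both strands for the E2F-type letters TTTCGCGC, TTTGGCGC, TTTCCCGC and TTTGCCGC. At least 1 of these was present in 11 of the 52 repair genes (21.2%), against 3.99% of all 27305 genes with a window. A gene with several annotated starts was counted if any of its windows held a match. The stretches from 150 bases before to 25 bases after the start of a matching window are shown for EXO1, MSH6, UNG and MSH3. EXO1, MSH6 and UNG carry such letters and fell at least 2-fold. MSH3 carries them and rose 1.17-fold, but did not pass with the hybridization-control scaling described below (0.02). All 4 lie on the + strand, and capitals mark the E2F-type letters; in MSH3 a forward and a reverse match overlap.
EXO1, chr1:241848054-241848228: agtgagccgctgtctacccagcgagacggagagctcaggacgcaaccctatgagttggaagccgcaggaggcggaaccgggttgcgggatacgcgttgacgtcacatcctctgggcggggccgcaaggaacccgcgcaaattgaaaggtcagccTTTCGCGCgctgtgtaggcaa
MSH6, chr2:47782995-47783169: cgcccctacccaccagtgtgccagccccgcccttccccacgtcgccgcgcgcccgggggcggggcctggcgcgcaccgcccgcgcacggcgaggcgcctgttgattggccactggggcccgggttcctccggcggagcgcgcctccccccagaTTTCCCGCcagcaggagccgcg
UNG, chr12:109098022-109098196: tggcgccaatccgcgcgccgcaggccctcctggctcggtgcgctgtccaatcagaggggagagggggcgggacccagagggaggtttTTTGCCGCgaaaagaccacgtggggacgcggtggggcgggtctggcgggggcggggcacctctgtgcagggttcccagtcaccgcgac
MSH3, chr5:80654502-80654676: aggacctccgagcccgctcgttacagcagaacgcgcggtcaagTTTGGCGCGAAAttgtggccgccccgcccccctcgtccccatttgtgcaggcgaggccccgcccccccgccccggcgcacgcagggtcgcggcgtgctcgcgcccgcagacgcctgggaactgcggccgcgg

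Arrays of 1 group resembled each other closely: the SD of their log2 difference was 0.131 to 0.147, against 0.677 to 0.681 for arrays of different groups. Component 1 of a principal component analysis took up 95.6% of the variance. The ratio of 3' over 5' probe sets, a sign of RNA integrity, differed between the groups by 0.158 for ACTB and 0.043 for GAPDH on the log2 scale, higher with MAP30 in all 3 arrays; its part in the results was not tested. The values were also scaled on spiked-in controls. Over all genes the median change was -0.02 on the deposited scale, -0.23 with each array centred on 18 hybridization control probe sets and 0.145 with each array centred on 24 poly-A control probe sets. Changes are given on the deposited scale, and a named gene whose call or direction turned with a control scaling is given with that value.

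With MAP30, 33 of the 52 measured repair genes (63.5%) were lower, 14 (26.9%) were higher and 5 did not pass. Across all genes 30.6% were lower and 26.9% were higher. On the deposited scale the share of repair genes that fell was thus above that of all genes, and the share that rose was the same. The median log2 fold change was -0.27 over the repair genes and -0.02 over all genes. With hybridization-control scaling 38 of the 52 repair genes were lower and 10 higher, beside 11558 and 3087 of all 18132 genes. Their median was -0.48, and the share that fell exceeded that of all genes by less than on the deposited scale. With poly-A-control scaling 25 of the 52 were lower and 16 higher, beside 3754 and 8906 of all 18132 genes. Their median was then -0.10, and the share that rose was below that of all genes. The arrays of the groups did not overlap in 49 repair genes, against 62.6% of all genes; 35 were lower and 14 higher, against 33.6% and 29.1% of all genes. Of the repair genes 10 fell and 2 rose at least 2-fold, where 4.13% of all genes fell and 5.42% rose by that much. At least 1.5-fold, 16 fell and 6 rose, where 10.9% of all genes fell and 11.2% rose by that much. SEs of the repair genes ran from 0.03 to 0.09, with a median of 0.04.

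**Figure D1:**
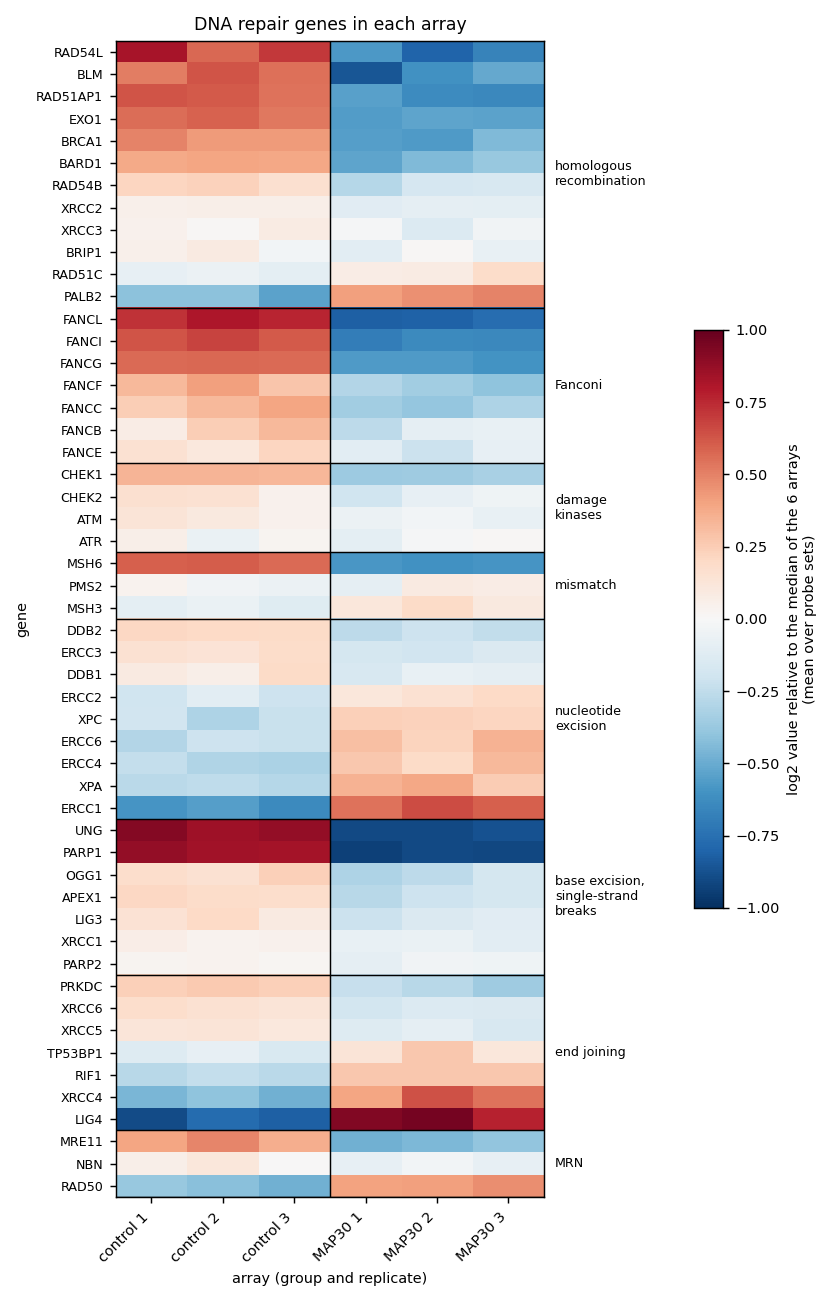
Log2 value of each of the 52 measured repair genes (rows, sorted by change within the 8 pathway groups) in each of the 6 arrays (columns), relative to the median of the 6 arrays and averaged over probe sets; red is above and blue below that median, and the colour scale ends at -1 and 1. Fanconi genes are red in control and blue with MAP30 throughout, while LIG4, ERCC1, XRCC4, PALB2 and RAD50 show the opposite.

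Homologous recombination genes of the chosen list fell in 8 of the 12 measured and rose in 2, where 30.6% of all genes fell and 26.9% rose. The median log2 fold change of these recombination genes was -0.62. RAD54L, a motor protein that helps the recombinase find and open its template, stood at 0.82, 0.58 and 0.71 in control replicates 1 to 3 and at -0.58, -0.80 and -0.67 with MAP30. The groups did not overlap, and RAD54L was 2.61-fold lower (-1.39 ± 0.08 SE, limma adjusted p = 2.41e-06). BLM, the helicase that dissolves joined recombination intermediates, had control values of 0.51, 0.63 and 0.55 and MAP30 values of -0.85, -0.60 and -0.51. Its SE was the widest among the 52 genes, and it was 2.33-fold lower (-1.22 ± 0.09 SE, limma adjusted p = 8.5e-06). RAD51AP1, which stimulates strand exchange, was at 0.63, 0.61 and 0.54 in control and at -0.54, -0.63 and -0.64 with MAP30, or 2.29-fold lower. All 4 of its probe sets fell, by 1.14 to 1.24 on the log2 scale.

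EXO1, an exonuclease that chews back broken ends to expose single strands, was at 0.56, 0.59 and 0.53 in control and at -0.56, -0.53 and -0.54 with MAP30. It was 2.14-fold lower (-1.10 ± 0.03 SE), with arrays of each group within 0.06 of each other. BRCA1, which promotes that resection and loads the recombinase with partners, was at 0.49, 0.43 and 0.43 in control and at -0.55, -0.57 and -0.44 with MAP30. It was 1.96-fold lower (-0.97 ± 0.04 SE, limma adjusted p = 8.02e-07), and all 5 of its probe sets fell, from -0.57 to -1.37. BARD1, the obligate partner of BRCA1 in a ubiquitin ligase, also fell, by 0.84 on the log2 scale. RAD54B, a relative of RAD54L, fell by 0.40 in its own probe set, but passed as higher (0.18) when a probe set shared with another gene was kept. XRCC2, a paralogue of the recombinase, fell by 0.15, and with poly-A-control scaling stood at 0.0104 without passing.

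PALB2 was higher. It bridges BRCA1 and BRCA2, and its values were -0.41, -0.41 and -0.54 in control and 0.41, 0.45 and 0.49 with MAP30. It was 1.87-fold higher (0.91 ± 0.05 SE, limma adjusted p = 1.46e-06), on the single probe set it has. RAD51C, another recombinase paralogue, was called higher at 0.19 ± 0.04 SE, but its 4 probe sets disagreed: 2 rose, by 0.59 and 0.45, 1 fell, by 0.39, and 1 at 0.12 did not pass. With hybridization-control scaling RAD51C stood at -0.0162 and did not pass. The helicase BRIP1 (-0.09, 95% confidence interval -0.21 to 0.02) and the paralogue XRCC3 (-0.10, -0.21 to 0.0008) did not pass; with hybridization-control scaling they passed as lower, at -0.30 and -0.31, and with poly-A-control scaling their direction turned, at 0.0702 and 0.0588, without passing.

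All 7 measured Fanconi genes of the chosen list fell, with a median log2 fold change of -0.69, although FANCB did not pass with poly-A-control scaling (-0.19). FANCL, the ubiquitin ligase subunit that marks the pathway's central pair of proteins, led them. Its values were 0.72, 0.81 and 0.76 in control and -0.82, -0.81 and -0.76 with MAP30, a 2.94-fold fall (-1.56 ± 0.04 SE, limma adjusted p = 4.94e-08). FANCI, 1 of that central pair, was at 0.63, 0.68 and 0.61 in control and at -0.69, -0.64 and -0.65 with MAP30, or 2.46-fold lower. Each of the 3 probe sets of FANCL and of FANCI fell by more than 2-fold, from -1.16 to -1.78.

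The other 5 genes belong to the core complex that carries FANCL. FANCG, an adaptor of that complex, was at 0.57, 0.57 and 0.57 in control and at -0.57, -0.57 and -0.60 with MAP30. It was 2.21-fold lower (-1.15 ± 0.03 SE). FANCF fell by 0.69, FANCC by 0.67, FANCB by 0.36 and FANCE by 0.29 on the log2 scale, and in each the highest MAP30 array lay below the lowest control array. The 7 falls thus ranged from -0.29 to -1.56. Of 10 other Fanconi genes measured outside the chosen list, 5 fell, 2 rose and 3 did not pass. FANCM, the translocase that anchors the core complex on DNA, was 1 of the 2 that rose. It stood at -0.31, -0.34 and -0.23 in control and at 0.35, 0.24 and 0.42 with MAP30. It was 1.55-fold higher (0.63 ± 0.06 SE, limma adjusted p = 2.95e-05), and also higher when scaled on either kind of control (0.42 and 0.79). WDR48, a cofactor of the enzyme that removes the ubiquitin mark, rose by 0.26, but not with hybridization-control scaling (0.0483); both were named after their values were seen. Over recombination and Fanconi genes of the chosen list together, 15 of 19 (78.9%) fell and 7 of these fell at least 2-fold. Over the other 33 repair genes 18 (54.5%) fell and 3 fell at least 2-fold. Of all genes 30.6% fell, and 4.13% fell at least 2-fold. Outside the chosen list 9 of 19 recombination genes and those 5 of 10 Fanconi genes fell.

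**Figure D2:**
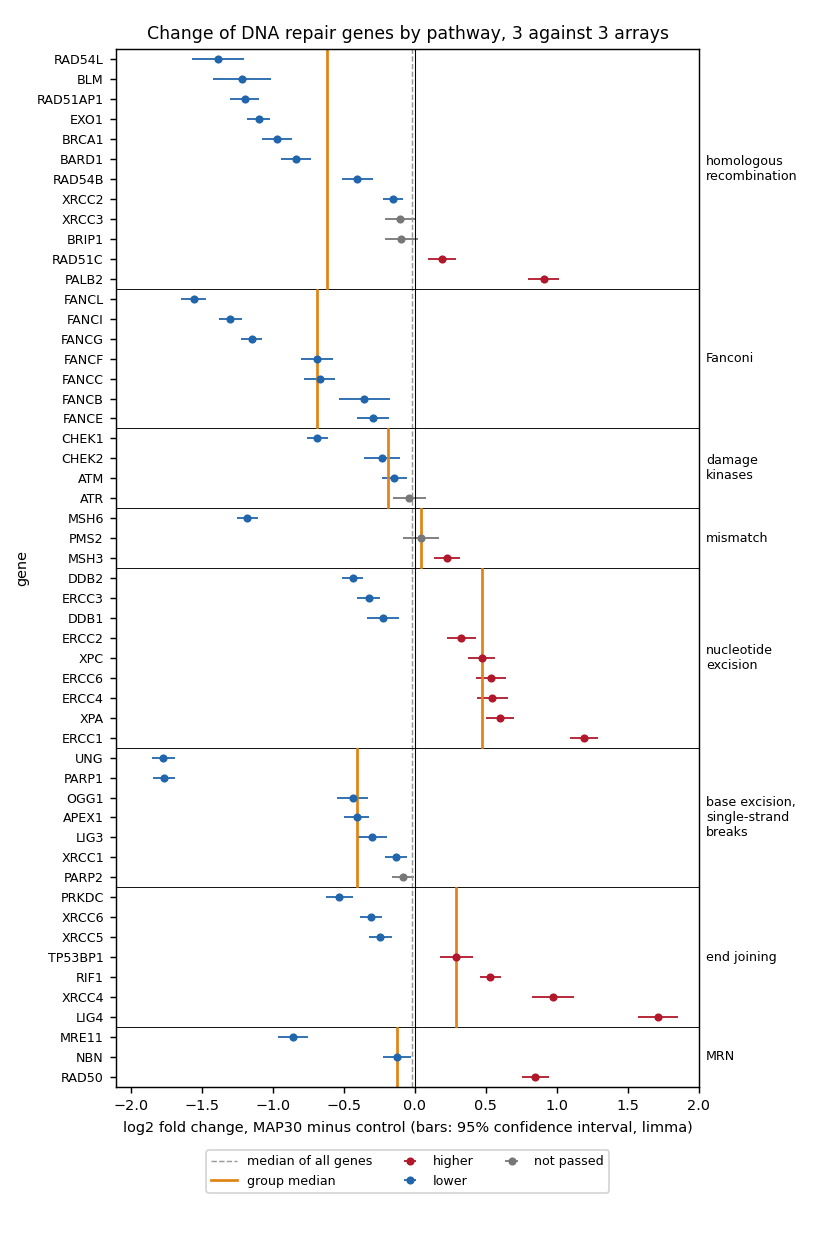
Log2 fold change of each measured repair gene (points) with its 95% confidence interval from limma (bars), grouped by pathway; orange lines are group medians and the dashed line is the median of all genes, -0.02. Group medians lie at -0.62 for homologous recombination and -0.69 for Fanconi genes, but at 0.47 for nucleotide excision and 0.29 for end joining.

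Among the 4 damage-signalling kinases of the chosen list, CHEK1 changed most. It is the effector that halts the cycle when replication forks stall. Its values were 0.34, 0.34 and 0.34 in control and -0.36, -0.36 and -0.32 with MAP30, a 1.61-fold fall (-0.69 ± 0.03 SE), and all 6 of its probe sets fell. CHEK2, the effector of ATM, fell by 0.23, and did not pass with poly-A-control scaling (-0.065). ATR, the kinase upstream of CHEK1, was at -0.04 (95% confidence interval -0.15 to 0.08) and did not pass; it passed as lower at -0.25 with hybridization-control scaling and as higher at 0.13 with poly-A-control scaling. ATM, the kinase that responds to broken ends, was called lower at -0.14 ± 0.04 SE, yet 2 of its 5 probe sets fell, to -0.42 and -1.30, and 2 rose, by 0.43 and 0.46. Its fall rests on the mean over probe sets: with their median it stood at 0.0746 and with poly-A-control scaling at 0.0205, without passing in either case.

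The 3 mismatch repair genes split. MSH6, a subunit of the complex that recognises base mismatches, was at 0.60, 0.60 and 0.56 in control and at -0.58, -0.61 and -0.59 with MAP30. It was 2.26-fold lower (-1.18 ± 0.03 SE, limma adjusted p = 7.18e-08), in both of its probe sets. MSH3, its alternative for larger loops, was at -0.09, -0.06 and -0.12 in control and at 0.11, 0.19 and 0.10 with MAP30. It rose 1.17-fold (0.23 ± 0.04 SE), but with hybridization-control scaling it stood at 0.02 and did not pass. PMS2, a subunit of the endonuclease that acts next, did not pass at 0.04 (95% confidence interval -0.09 to 0.17), and its direction followed the scaling, at -0.16 when scaled on hybridization controls and 0.21 when scaled on poly-A controls, both past the threshold.

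Nucleotide excision was the group with the highest median, 0.47, with 6 of 9 measured genes higher and 3 lower. Of all genes 26.9% were higher and 30.6% lower. ERCC1, which with ERCC4 forms the nuclease that cuts on the 5' side of a lesion, was at -0.59, -0.55 and -0.63 in control and at 0.54, 0.65 and 0.60 with MAP30. It was 2.29-fold higher (1.19 ± 0.04 SE, limma adjusted p = 2.25e-07), in both of its probe sets. ERCC4 rose 1.46-fold (0.55 ± 0.05 SE); 3 of its 5 probe sets rose, by 0.46 to 1.33, and 2 did not pass. Both subunits of this nuclease were therefore higher in the mean over probe sets.

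XPC, the sensor of helix distortion, rose by 0.47, and XPA, which verifies the damage, rose by 0.60 on the log2 scale. ERCC6, which starts the branch that clears stalled RNA polymerase, rose by 0.53, in 1 of its 2 probe sets. The sensors of ultraviolet lesions went the other way: DDB2, a p53 target, was at 0.21, 0.20 and 0.19 in control and at -0.26, -0.21 and -0.24 with MAP30, a fall of 0.44. DDB1, its partner and a ubiquitin ligase scaffold, fell by 0.22 and did not pass with poly-A-control scaling (-0.06).

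The helicases of TFIIH, the complex that opens DNA both for excision and for transcription, split as well. ERCC2 rose by 0.33, though at 0.12 it did not pass with hybridization-control scaling, and ERCC3 fell by 0.32 on the log2 scale. Further TFIIH genes were set beside them after their values were seen. GTF2H1, a core subunit, was 3.33-fold higher (1.74 ± 0.03 SE), and CDK7, the kinase of the complex, 2.9-fold higher; CCNH (1.03) and MNAT1 (0.81), the partners of CDK7, also rose. GTF2H4 (-0.44) and GTF2H5 (-0.31) fell, and GTF2H3 (-0.04) did not pass. GTF2H4 did not pass with poly-A-control scaling (-0.27) or without control replicate 1 (-0.37), MAP30 replicate 1 (-0.34) or MAP30 replicate 3 (-0.39), and GTF2H3 passed as lower with hybridization-control scaling (-0.25) but stood at 0.13 with poly-A-control scaling and at 0.0159 without control replicate 2, without passing. Of 9 measured TFIIH genes, 5 were therefore higher and 3 lower, beside 26.9% and 30.6% of all genes. All 3 genes of the kinase module of TFIIH were higher.

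Base excision and single-strand break repair genes of the chosen list fell in 6 of 7 and rose in 0, with a median of -0.41. Across all genes 30.6% fell and 26.9% rose. By both control scalings 0 of these 7 were higher too. Outside the chosen list 10 of 17 measured base excision genes fell and 5 rose. UNG, the glycosylase that removes uracil from DNA, was at 0.92, 0.85 and 0.88 in control and at -0.90, -0.90 and -0.87 with MAP30. It was 3.41-fold lower (-1.77 ± 0.03 SE, limma adjusted p = 1.93e-08), the largest fall of the 52 repair genes, and its 2 probe sets gave -1.76 and -1.79. PARP1, the main sensor of strand breaks, which builds poly(ADP-ribose), was at 0.88, 0.84 and 0.83 in control and at -0.94, -0.90 and -0.91 with MAP30. It was 3.4-fold lower (-1.77 ± 0.03 SE, limma adjusted p = 1.76e-08), and its 4 probe sets ran from -1.40 to -2.21. For both genes every control array lay far above every MAP30 array.

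PARP2, a further polymerase of this kind, was at -0.08 (95% confidence interval -0.16 to -0.0049) and did not pass after adjustment (adjusted p = 0.0671), although it passed as lower with hybridization-control scaling (-0.29); with poly-A-control scaling its direction turned, at 0.082, without passing. OGG1, the glycosylase for oxidised guanine, fell by 0.44, APEX1, the endonuclease that cuts at the site left behind, by 0.41 and LIG3, the ligase that seals the nick, by 0.30. XRCC1, the scaffold that holds LIG3, fell by 0.13 and stood at 0.0331 without passing under poly-A-control scaling. The probe sets of OGG1 differed widely, from -0.0031 to -1.19, and 4 of the 8 probe sets of LIG3 did not pass.

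Of the 7 measured end joining genes of the chosen list, 4 rose and 3 fell, and the median change was 0.29. Across all genes 26.9% rose and 30.6% fell. LIG4, the ligase of this pathway, was at -0.90, -0.77 and -0.82 in control and at 0.92, 0.96 and 0.77 with MAP30. It was 3.27-fold higher (1.71 ± 0.06 SE, limma adjusted p = 2.1e-07), the largest rise of the 52 genes, on a single probe set. That probe set is of class _x_at, so LIG4 had no value with _s_at and _x_at probe sets left out. XRCC4, which binds and stabilises LIG4, was at -0.45, -0.40 and -0.48 in control and at 0.40, 0.64 and 0.54 with MAP30. It was 1.96-fold higher (0.97 ± 0.06 SE), and its 4 probe sets all rose, by 0.80 to 1.32. LIG4 and XRCC4 were thus both higher, with no overlap between groups. NHEJ1, which works with them at the ligation step and is outside the chosen list, was lower: it stood at 0.18, 0.19 and 0.34 in control and at -0.24, -0.30 and -0.18 with MAP30 (-0.48 ± 0.06 SE, limma adjusted p = 0.000157), and it was lower under both control scalings.

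The 3 genes of the end-binding kinase complex were lower. PRKDC, its catalytic subunit, was at 0.24, 0.26 and 0.24 in control and at -0.23, -0.27 and -0.36 with MAP30, a 1.45-fold fall (-0.53 ± 0.04 SE). XRCC6 and XRCC5, the Ku proteins that ring a broken end, fell by 0.31 and 0.24; XRCC5 did not pass with poly-A-control scaling (-0.08). TP53BP1 and RIF1, which shield ends from resection and so oppose BRCA1, rose by 0.29 and 0.53 on the log2 scale. All 7 probe sets of RIF1 rose, whereas 2 of the 4 of TP53BP1 did, and with hybridization-control scaling TP53BP1 stood at 0.08 and did not pass. Genes outside the chosen list that act at these steps went both ways: DCLRE1C, the nuclease that PRKDC activates, rose by 0.39, and of the factors that act below RIF1 in end protection SHLD1 rose by 0.37 and MAD2L2 fell by 0.71. NHEJ1 and these 3 were named after their values were seen, and the 3 kept direction and call under both control scalings.

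The 3 genes of the MRN complex, which tethers broken ends and activates ATM, took 3 courses. RAD50, the coiled-coil tether, was at -0.38, -0.42 and -0.48 in control and at 0.40, 0.41 and 0.46 with MAP30, a 1.8-fold rise (0.85 ± 0.04 SE) shared by its 3 probe sets. MRE11, the nuclease, was at 0.40, 0.49 and 0.37 in control and at -0.48, -0.45 and -0.39 with MAP30, a 1.81-fold fall (-0.86 ± 0.05 SE), with 4 of 5 probe sets lower. NBN, the signalling subunit, was called lower at -0.12 (adjusted p = 0.0333), with 2 probe sets lower, 1 higher and 2 that did not pass. That call was lost without control replicate 1 (-0.12) or 2 (-0.10) and without MAP30 replicate 1 (-0.12) or 3 (-0.12), with arrays centred on their medians (-0.11), with quantile normalization (-0.10), with _s_at and _x_at probe sets left out (-0.06) and with poly-A-control scaling (0.0388).

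Of the 38 repair genes with several probe sets, 22 had every probe set called in 1 direction. That share was not counted over all genes. In 3 repair genes (RAD51C, ATM and NBN) probe sets were called in opposite directions, against 7.24% of the 11734 genes with several probe sets. Of 145 probe sets of repair genes, 82 were lower, 36 higher and 27 did not pass, where 30.2% and 26.5% of all probe sets with 1 gene were lower and higher. Probe sets of a gene can read different transcript forms, and the files do not say which.

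**Figure D3:**
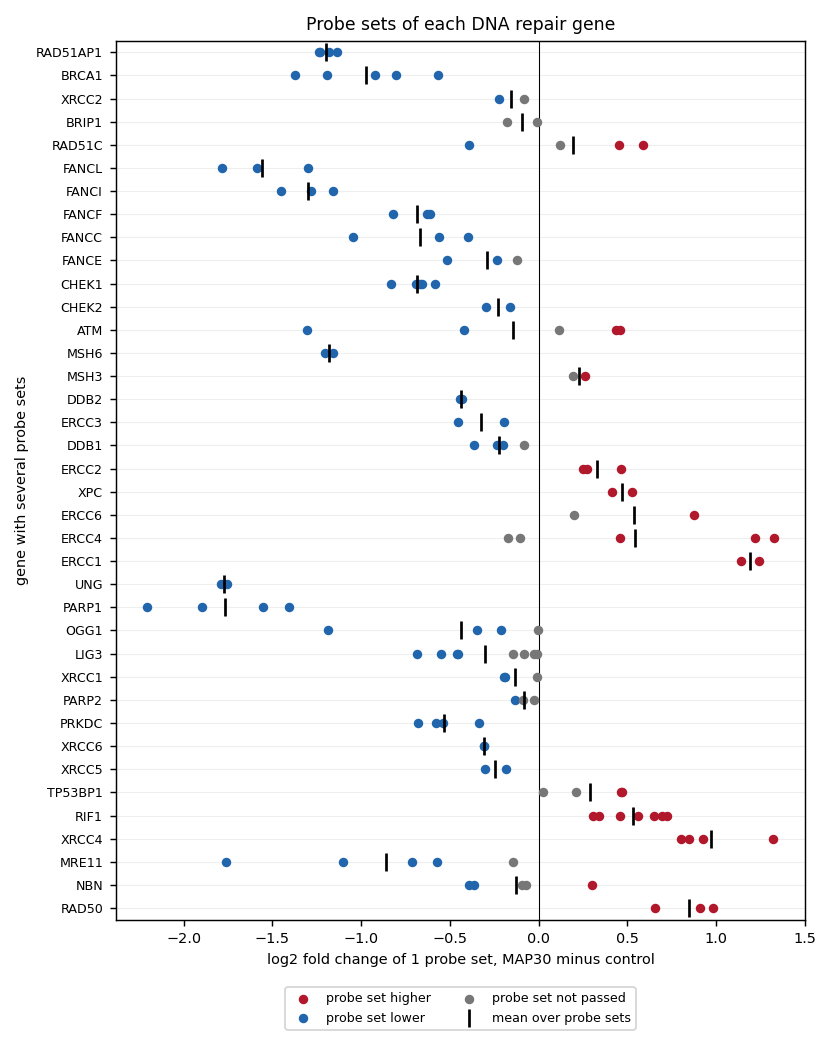
Log2 fold change of each probe set (points, coloured by its own call in limma) for the 38 repair genes with several probe sets; black ticks are the means over probe sets. The probe sets of UNG, MSH6 and RAD51AP1 nearly coincide, while those of ATM run from -1.30 to 0.46 and those of MRE11 from -1.76 to -0.14.

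A further 111 repair genes were listed by the same pathways, of which 102 were measured. Of these 46 (45.1%) were lower and 37 (36.3%) higher, with a median of -0.04, beside 30.6% and 26.9% of all genes. With hybridization-control scaling 60 were lower and 24 higher, beside 11558 and 3087 of all 18132 genes. With poly-A-control scaling, beside 3754 and 8906 of all 18132 genes, 39 of the further repair genes were lower and 49 higher. The largest falls were those of RMI2 (-2.09), which works with BLM, FEN1 (-2.03), the flap nuclease of replication and base excision, HLTF (-1.43), a fork remodeller, POLQ (-1.19), the polymerase of alternative end joining, UBE2T (-1.18), the conjugating enzyme that serves FANCL, and CLSPN (-1.17), an adaptor that CHEK1 needs. The largest rises were those of the helicase HELQ (1.99), GTF2H1 (1.74), CDK7 (1.54), REV3L (1.26), the catalytic subunit of a translesion polymerase, RAD52 (1.22), a strand-annealing protein, and SFR1 (1.18), a recombination cofactor. These 12 kept their direction and their call in both control scalings and without each array. They were picked for the size of their change. Each control scaling shifts all genes by the same, smaller amount, so their direction could not turn with it.

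By pathway, these further genes gave 9 lower and 8 higher of 19 in recombination, 5 and 2 of 10 in the Fanconi pathway, 8 and 6 of 20 in damage signalling, and 10 and 5 of 17 in base excision. Nucleotide excision had 4 lower and 7 higher of 12, end joining 5 and 3 of 8, and translesion synthesis 3 and 5 of 10. Mismatch repair had 1 lower and 0 higher of 3, and direct reversal 1 of each among 3. Beside these, 30.6% of all genes were lower and 26.9% higher. The further recombination genes had a median of -0.02, beside -0.62 for those of the chosen list; the difference between the lists was not tested.

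Markers of S phase and proliferation moved with the groups. Of 22 markers 21 fell and 1, E2F7 (0.48), rose, with a median of -1.34, where 30.6% of all genes fell and 26.9% rose. The marker counts were the same in both control scalings. MKI67, a marker of cycling cells, was at 0.63, 0.67 and 0.66 in control and at -0.69, -0.66 and -0.66 with MAP30. PCNA, the sliding clamp of replication, was 3.75-fold lower and the cyclin gene CCNE2 5.21-fold lower. In RNA from whole cultures, fewer cells that express a gene and less of its RNA per cell cannot be told apart, and the part of these markers in the change of the repair genes was not tested.

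The E2F-type letters shown above were present in genes that fell, rose and did not pass. Among measured repair genes with a window they were present in 6 of 28 that were lower (21.4%), in 2 of 14 that were higher (14.3%) and in 1 of 5 that did not pass (20%). Genes lower at least 2-fold held them in 3 of 9 (33.3%), while the strongly lowered PARP1, FANCL and RAD54L had none in their windows. Counted from the start of the matching window, the letters began at position 4 in MSH6, 5 in EXO1, -63 in UNG and -107 in MSH3. EXO1, MSH6 and UNG have other annotated starts, and the windows of those held no such letters. The next counts are over the 52 repair genes with a window, measured or not. The letters CCAAT, bound by NF-Y, were present in 27 of them (51.9%, against 39.7% of all genes). TTTGAA, an element of late cell cycle genes, was present in 9 (17.3%, against 18.2% of all genes). A match of letters is a description of the window and not evidence of binding.

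The pathway pattern was compared across the scalings. Of the 52 genes, 35 kept direction and call under both control scalings, 25 of them lower and 10 higher. How many of all genes did so was not counted. Of all 18132 genes, 11558 were lower and 3087 higher when scaled on hybridization controls, and 3754 and 8906 when scaled on poly-A controls. Of the Fanconi genes 7 were lower when scaled on hybridization controls and 6 when scaled on poly-A controls, and of the recombination genes 10 and 7. Nucleotide excision genes were 5 higher and 3 lower with the former and 6 higher and 2 lower with the latter, and end joining genes 3 and 3, then 4 and 2. Damage kinases, at 4 lower with the former but 1 lower and 1 higher with the latter, and mismatch repair, at 2 lower and 0 higher, then 1 lower and 2 higher, depended on the scaling.

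**Figure D4:**
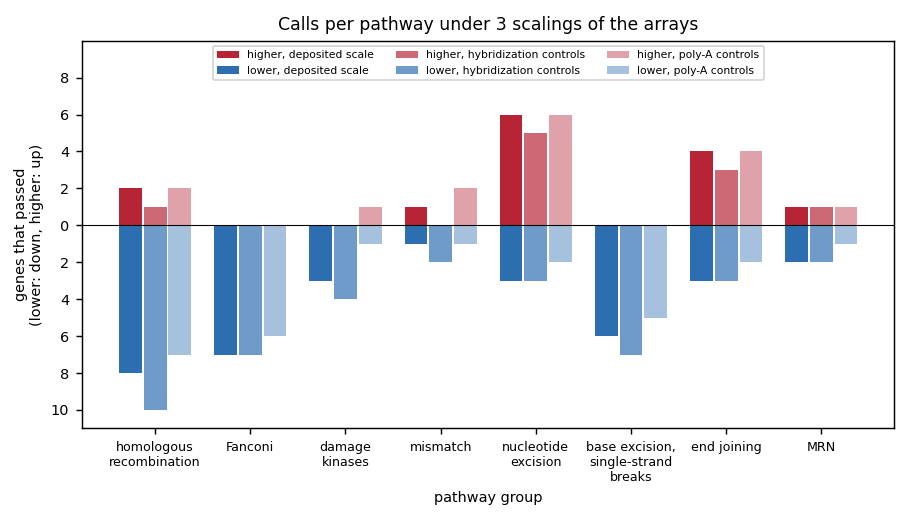
Number of repair genes per pathway group that passed as higher (red, upward) or lower (blue, downward) on the deposited scale and with arrays centred on hybridization or poly-A controls (paler bars). Fanconi and base excision genes of the chosen list have 0 higher under all 3 scalings. Nucleotide excision has more higher than lower genes under each. Of all 18132 genes, 5553 were lower and 4878 higher on the deposited scale. With hybridization controls these counts were 11558 and 3087, and with poly-A controls 3754 and 8906.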

How the data were processed

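The authors deposited 1 table of log2 values for 49395 probe sets on 6 arrays of biotin-labelled RNA amplified from the 3' end, per the labels' protocols; RMA and MAS5 are named, with no role, per the submitters' processing notes, and the logarithm was taken to have base 2. Each probe set has a median of 0 over the arrays, to within 5.0e-07, so differences between arrays remain but levels are lost. The 44988 probe sets annotated to exactly 1 gene were averaged per gene; 1832 with several genes were left out. MAP30 and control (3 arrays each) were compared with limma 3.58.1 in R 4.3.3 (lmFit, eBayes, two-sided, Benjamini-Hochberg over 18132 genes), tested on simulated data. Tables used Python 3.11.15 with pandas 2.3.3 and matplotlib 3.10.9. The number of arrays limits the precision, and no batch is given.

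The genes, lists and tests were chosen with earlier results of these data known, so no p over a list is given. All repair genes may be named; array values are given for the 14 largest changes and the largest rise and fall of each group, and the 6 largest rises and falls of the further repair genes are named, with at most 4 proliferation markers. Alternatives covered normalization, control scaling, probe sets, variance, pairing, leaving out each array and a fold threshold. The labels do not say that replicate numbers pair the arrays, and the main comparison did not pair them.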

Additional observations from a re-analysis of the deposited data

Results flagged for a closer look

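Probe sets annotated to several genes entered no comparison above, and 3 of them that include a repair gene passed on their own in limma. Of the 2 probe sets shared by PMS2 and its pseudogene PMS2CL, 1 rose by 0.85 (control -0.53, -0.32 and -0.51; MAP30 0.32, 0.40 and 0.46) and the other by 0.82 (control -0.37, -0.36 and -0.43; MAP30 0.40, 0.36 and 0.56), whereas the probe set of PMS2 alone was at 0.04. Which copy they read cannot be told apart. The probe set shared by RAD54B and FSBP rose by 0.76 (control -0.23, -0.61 and -0.55; MAP30 0.23, 0.35 and 0.30), whereas the probe set of RAD54B alone fell by 0.40 on the log2 scale.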

How the results depend on the processing

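Of the 52 repair genes, 34 kept direction and call under every alternative that gave them a value, other than the fold threshold. XRCC2, CHEK2, PMS2, LIG4 and XRCC6 had no value with _s_at and _x_at probe sets left out. Without each array in turn 51 kept direction and call, and NBN was the exception. Neither count was made over all genes. Robust variance and array weights changed no call of a named gene. With the replicate block the repair genes stayed at 33 lower and 14 higher with the same calls, and all genes at 5483 lower and 4838 higher; deviations of same-numbered arrays correlated at -0.04, 0.07 and 0.01, and not every array correlated best with its own number. Directions turned for RAD51C (-0.0162) and PMS2 (-0.16) with hybridization-control scaling, for XRCC2 (0.0104), ATM (0.0205), ATR (0.13), XRCC1 (0.0331), NBN (0.0388) and, passing on neither scale, BRIP1 (0.0702), XRCC3 (0.0588), PARP2 (0.082) and GTF2H3 (0.13) with poly-A-control scaling, for ATM (0.0746) with the median over probe sets and for RAD54B (0.18) with shared probe sets kept. With hybridization-control scaling recombination had 1 higher, mismatch repair 2 lower and 0 higher, and the further repair genes 24 higher. All genes then had 11558 lower and 3087 higher. With poly-A-control scaling damage kinases had 1 lower and 1 higher, mismatch repair 2 higher and the MRN complex 1 lower. All genes then had 3754 lower and 8906 higher. The MRN complex also had 1 lower with median centring, quantile normalization and _s_at and _x_at probe sets left out, and from 1 to 2 lower without each array. With shared probe sets kept, mismatch repair had 2 higher. A threshold of at least 1.5-fold, stricter by construction, left 16 repair genes lower and 6 higher, beside 10.9% and 11.2% of all genes: recombination 1 higher, damage kinases 1 lower, mismatch repair 0 higher, nucleotide excision 0 lower and 2 higher, base excision 2 lower, end joining 0 lower and 2 higher, the MRN complex 1 lower, and further repair genes 26 lower and 15 higher. Causes other than this construction were not tested. Calls in opposite directions were found in 3 genes without _s_at and _x_at probe sets too. Signal over background could not be judged in centred values.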

Other observations

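The 4 probe sets shared by ERCC5, the nuclease that cuts on the 3' side of a bulky lesion, and the readthrough BIVM-ERCC5 did not pass in limma, with log2 fold changes of -0.18, -0.01, 0.0028 and -0.02. The probe set shared by CHEK2 and uncharacterised loci stood at -0.09 and did not pass.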
